A study of Mus musculus with 8 samples.

Results

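The peaks described here lie in exons, as the authors annotated them, and carry neither their promoter class nor a UTR class. They come from anti-IRF5 CUT&Tag in macrophages grown from the bone marrow of wild-type mice, given PBS (control) or CpG. Each condition has 2 libraries. CUT&Tag sequences the DNA that a transposase cuts next to an antibody, so a peak marks a place where fragments pile up above a background library. Of 105945 peaks on the 21 assembled nuclear chromosomes in the 4 libraries, 4003 were such exon peaks: 1178 of 29226 peaks in control 1, 1482 of 37315 peaks in control 2, 389 of 13553 peaks in CpG 1 and 954 of 25851 peaks in CpG 2. Another 4 libraries, made with IgG, were left out. The labels give neither the dose nor the time of CpG, and do not say whether the 2 libraries of a condition came from separate mice or cultures. Their spread may therefore be technical.

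IRF5 is an interferon regulatory factor that is activated through MyD88 when a Toll-like receptor such as TLR9 meets its ligand, and unmethylated CpG DNA is the ligand of TLR9. It then drives inflammatory cytokine genes such as Tnf and Il6. Factors of this family bind repeats of GAAA, the core of the interferon-stimulated response element, usually in promoters and enhancers. Exons are a minor place of binding for most transcription factors, and a peak inside one may lie just past a gene's start, at an internal exon or at the only exon of a small gene.

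Among immune list genes B2m, Irgm1 and Rsad2 had an exon peak near their start and also GAAANNGAAA in the RefSeq promoter window, which runs from 250 bases before to 50 after the annotated start on GRCm38.p6. B2m encodes the light chain of MHC class I, Irgm1 an interferon-inducible GTPase, and Rsad2 the antiviral enzyme viperin. The 30 bases around the first match are shown 5′ to 3′ on the gene's strand, with the letters of GAAANNGAAA, or of its reverse complement in Rsad2, in capitals. The positions are of GRCm38.p6 and cannot be set beside the peak positions, whose build the sources used here do not give.
B2m (chr2:122147538-122147567, + strand): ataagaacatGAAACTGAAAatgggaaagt
Irgm1 (chr11:48871431-48871460, - strand): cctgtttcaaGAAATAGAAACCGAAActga
Rsad2 (chr12:26456553-26456582, - strand): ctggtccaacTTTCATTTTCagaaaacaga
The match began 139 bases before the start in B2m, 30 in Irgm1, where a second match overlaps the first, and 120 in Rsad2. These 3 were among 16 list genes that had both an exon peak within 1 kb downstream of their start and a RefSeq window, of 24 with such a peak. The 3 are a minimum and not a share of the 16. Genes on a chromosome left out of the sequence display could not be among the 3.

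Across all genes, the windows behind exon peaks held the element about as often as other windows. GAAANNGAAA on either strand was in 3.01% of 765 windows of the 678 genes that had an exon peak within 1 kb downstream of their own start and matched a RefSeq symbol, of 1192 such genes. It was in 3.44% of all 32851 windows of 300 bases in the table. The TATA box (TATAAA, either strand) was in 11.1% against 13.6%, and the AP-1 site (TGANTCA, either strand) in 6.54% against 7.81%. For the 121 windows of genes whose region was called in all 4 libraries the shares were 4.13%, 14.9% and 8.26%, of which the first is 5 windows. A match is a string of letters in a window and no evidence of binding.

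Exon peaks were fewer in both CpG libraries than in both control libraries, and the groups did not overlap. The mean was 1330 ± 215 (SD, n = 2) in control and 671.5 ± 400 (SD, n = 2) in CpG, and the ratio was 0.505 (exact permutation test, two-sided, p = 0.333, the smallest that 6 ways of assigning 4 libraries allow). Their share of the list was 4.03% and 3.97% in the control libraries, 2.87% in CpG 1 and 3.69% in CpG 2. The difference in share was -0.721 percentage points (p = 0.333, same exact test). Whole lists were also shorter in CpG, at 13553 and 25851 peaks of any class against 29226 and 37315 in control. Library CpG 1 stood apart with the shortest list of all. Without it the ratio of exon peaks was 0.717 and the difference in share -0.311 points. With the same number of highest peaks taken from each list, 13553, the ratio was 0.913 (p = 0.667, same exact test). The difference in share was then -0.306 points (p = 0.667, same exact test), and the conditions no longer separated in number or share. Depth is unknown for these lists. The background was, as far as list names tell, IgG from the same condition, the same one for both control libraries and under 2 different names for the CpG libraries. The part of either in these values was not tested. In bulk chromatin, binding in fewer cells and weaker binding per cell cannot be told apart.

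**Figure D1:**
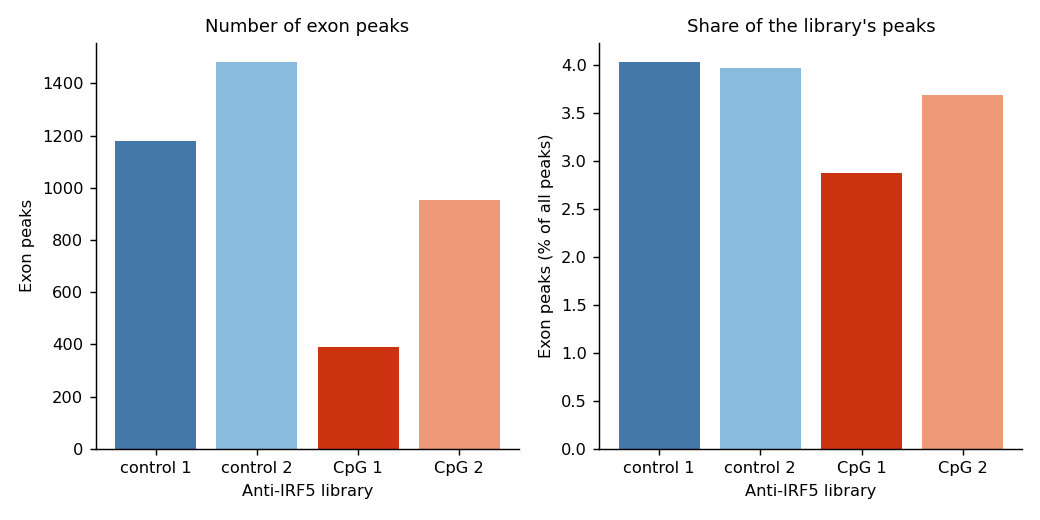
Number of exon peaks (left) and their share of all peaks of the same library in percent (right), 1 bar per anti-IRF5 library. Both CpG libraries lie below both control libraries in number and in share, and CpG 1 is lowest in both, at 389 peaks and 2.87%.

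Exon peaks gathered just downstream of gene starts, although their annotation carries no promoter class. Within 1 kb downstream of the nearest start lay 49.2% and 46.4% of the summits in control 1 and control 2, and 47.0% and 51.7% in the CpG libraries. The median absolute distance from the nearest start, upstream or downstream, was 1046.0 and 1292.0 bp in the control libraries and 1300.0 and 890.5 bp in the CpG libraries. Summits 0 to 250 bp downstream made up 30.3%, 27.8%, 28.8% and 31.0% of exon peaks in that order of libraries. In intron-only peaks, whose annotation names no other class, the same bin held 1.56%, 1.47%, 0.976% and 1.69%. Almost no exon peak had its summit in the 2 kb upstream, where the authors' promoter class takes the peak out of the set. Another 9.34% to 10.03% had their summit over 10 kb downstream of the nearest start, inside that gene or past its end. The peak itself reached over the nearest start in 24.8%, 23.2%, 14.7% and 23.2% of cases.

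**Figure D2:**
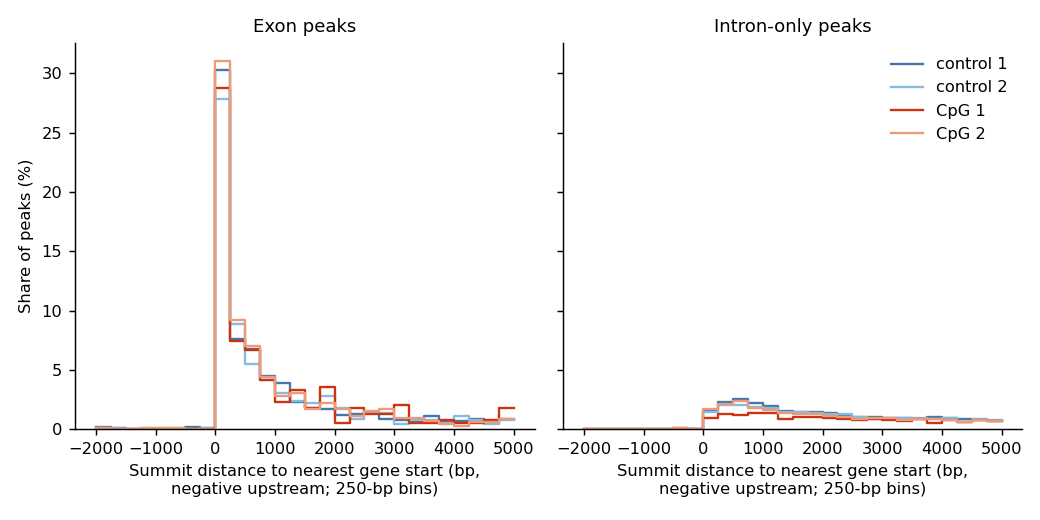
Share of peaks (percent) by distance of the summit from the nearest gene start in 250-bp bins, for exon peaks (left) and intron-only peaks (right), 1 line per library. In all 4 libraries 27.8% to 31.0% of exon peaks fall in the first bin downstream of the start, against 0.976% to 1.69% of intron-only peaks.

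Within 2 kb downstream of a start lay 58.9% and 56.8% of exon peaks in the control libraries and 58.1% and 61.4% in the CpG libraries. The conditions overlapped, with a difference of 1.90 points (two-sided exact permutation test, p = 0.667), and this difference turned to -4.15 points with equal numbers of peaks. In each of the 4 libraries the share was 43.2 to 49.0 points above that of intron-only peaks (exact sign-flip permutation test over the 4 libraries, p = 0.125, its smallest value). Part of that excess follows from the rule, since introns begin only after a first exon. The nearest gene was the gene of the exon in 75.2%, 72.0%, 74.6% and 78.1% of exon peaks. A promoter-class peak of the same gene was called in the same library for 29.4%, 33.5%, 12.3% and 26.6%.

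Exon peaks were of modest height. Ranked by the authors' fold enrichment among all peaks of the same list, with 100 the highest, the median exon peak was at percentile 45.5 and 42.4 in the control libraries and 49.6 and 45.9 in the CpG libraries. That was below the median of intron-only peaks in 4 of 4 libraries, by 3.34 to 7.53 percentile points, and below that of intergenic peaks in 4 of 4 (exact sign-flip permutation test, p = 0.125 for each). Against promoter-class peaks there was no common direction, with exon peaks lower in both control libraries and higher in both CpG libraries. Of exon peaks, 7.39%, 7.29%, 7.46% and 8.39% ranked above percentile 90 of their list. Between conditions the medians differed by 3.83 points (43.9 ± 2.16 in control, 47.8 ± 2.60 in CpG, SD, n = 2 each; exact permutation test, p = 0.333), or by 2.00 without CpG 1. The median length was 277.0, 312.0, 206.0 and 317.0 bp.

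**Figure D3:**
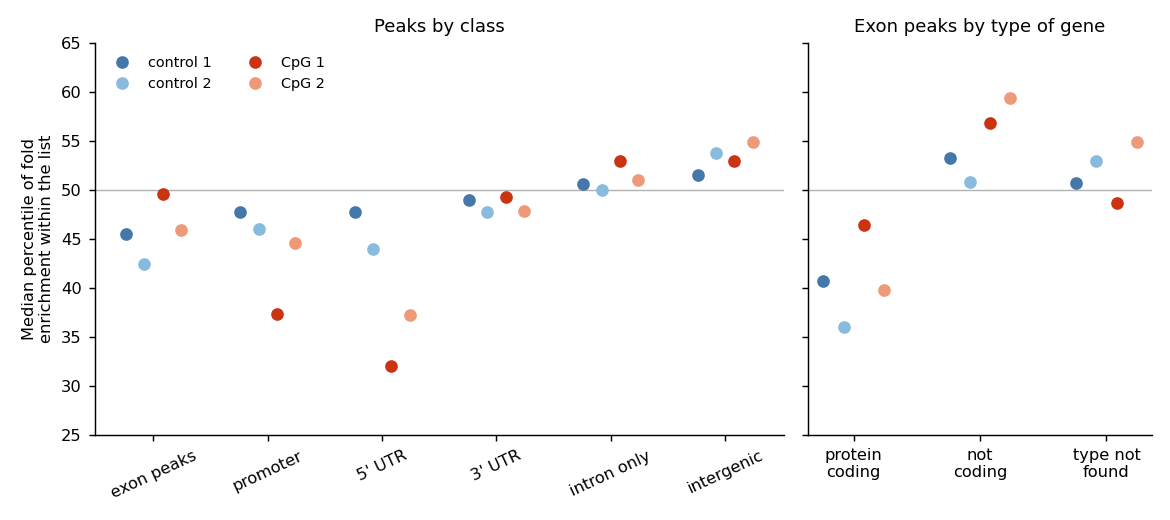
Median percentile of fold enrichment within the library's own list, by class of peak (left) and for exon peaks by type of the gene whose exon was hit (right), 1 point per library. Exon peaks lie below intron-only and intergenic peaks in each library, and exon peaks at protein-coding genes lie below those at genes that are not coding.

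The exons belonged to 2533 genes, of which 2346 had a name in the files, and 88.8% of the genes had a single exon region. A gene type was found in RefSeq for 1920 genes, and 1523 of the 2533 were protein coding, 303 long non-coding RNAs, 66 pseudogenes and 16 small RNAs. Protein-coding exons held 58.1%, 59.1%, 43.2% and 55.8% of the exon peaks. A non-coding gene has no UTR, so no UTR class of its own takes its exons out of the set, although the promoter class can. The first exon of a coding gene often carries a UTR class that takes it out. The part of this in the values by gene type was not tested. The median exon peak at a coding gene was at percentile 40.8, 36.0, 46.4 and 39.8, below that at non-coding genes, 53.3, 50.8, 56.8 and 59.4, in each library. The libraries thus shared a tilt of the higher exon peaks towards genes that are not protein coding.

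Peaks of the 4 libraries that overlapped by at least 1 bp were merged into 55621 regions, of which 2767 held an exon peak in at least 1 library and are called exon regions. Of these, 334 (12.1%) were called in all 4 libraries by a peak of any class, against 10.1% of all regions. CpG-only regions, with a peak in CpG 1 and CpG 2 and in no control library, numbered 23 (0.831%), against 1.15% of all regions. Control-only regions, the opposite case, numbered 325 (11.7%), against 8.7%. Having a peak in several libraries gives a region more chances to hold an exon peak, which raises the counts of exon regions in several libraries by construction. The regions of a single library are free of this. Exon regions of control 1 were met by a peak in control 2, CpG 1 and CpG 2 in 64.3%, 19.6% and 45.0% of cases, against 65.2%, 24.05% and 49.2% of all its regions. For control 2 the shares were 48.4%, 17.1% and 41.9% in control 1, CpG 1 and CpG 2, against 48.96%, 20.99% and 46.97%. From CpG 1, exon regions were met more often than all regions, at 53.6%, 62.8% and 61.5% in control 1, control 2 and CpG 2 against 50.6%, 58.9% and 58.6%. From CpG 2 the shares were 57.97%, 71.7% and 29.6% in control 1, control 2 and CpG 1, against 55.9%, 71.2% and 31.6%. Exon regions were thus met less often than all regions from the control libraries, and mostly more often from the CpG libraries, by a few percentage points.

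Library CpG 1 decided much of these counts. A further 481 exon regions (17.4%, against 12.2% of all regions) were missing only from it. Without CpG 1, 787 of 2602 exon regions were called in all 3 remaining libraries (30.2%, against 24.02% of all regions), 231 in CpG 2 and neither control library (8.88%, against 11.6%) and 353 in both control libraries and not in CpG 2 (13.6%, against 10.3%). Taking the same number of peaks from each list gave 46 exon regions in both CpG libraries alone and 93 in both control libraries alone, 3.81% and 7.71% of 1206, against 3.48% and 5.87% of all regions. Where every peak of a region had to be an exon peak, 140 of 1767 regions (7.92%) were control-only. A further 74 (4.19%) were called in all 4 libraries, and both shares were below those of all regions. A region with peaks in several libraries meets this condition less easily, which lowers such counts by construction. The shares are therefore no reversal of the counts above. With exon summits at least 1 kb from a start, 143 of 1469 (9.73%) were called in all 4.

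A region called in all 4 libraries was seldom an exon peak in all 4. In the 334 such regions 582 library calls had no exon peak, and these were promoter class in 44.2%, intron in 40.5%, UTR in 13.4% and other in 1.89%. In 404 exon regions a promoter-class peak was called in another library, with a median gap between the nearest exon and promoter summits of 213.5 bp, and the gap was at most 200 bp in 188 of them (46.5%). The same region could thus be an exon peak in 1 library and a promoter peak in another. A stricter core of 87 regions held an exon peak in all 4 libraries, and their 4 summits spanned a median of 128.0 bp.

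The 87 core regions were made up differently from exon regions at large. Of the 87, 18 (20.7%) were typed as protein coding, against 62.4% of all 2767 exon regions. No gene type was found for 40 of the 87 (46.0%), against 22.9% of all exon regions, and of the 47 with a type 38.3% were coding, against 80.9%. By symbol, 64 (73.6%) lay in genes with a Gm or Rik symbol, which marks predicted and cDNA-clone genes, against 30.4%. The control-only regions were 71.7% coding. These shares describe the sets, and the rule that takes out UTR and promoter classes bears on them, as above.

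The 12 core regions with the highest lowest rank were led by Gm16638, a long non-coding RNA gene on chromosome 7 (83245475 to 83247600). Its fold enrichment, each in its own list, was 14.6 and 38.8 in the control libraries and 13.99 and 54.5 in the CpG libraries, at percentiles 98.0, 99.6, 99.5 and 99.9. It was thus among the highest peaks of any class in each library. The start nearest to its summits was that of another gene, Tmc3, 12210 to 12308 bp away.

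Il1bos, the non-coding gene on the strand opposite to Il1b, which encodes the cytokine interleukin 1 beta, followed at chromosome 2 (129214626 to 129216413). Its fold enrichment was 12.2, 27.2, 14.3 and 16.5, at percentiles 95.9, 98.8, 99.6 and 96.1 of the 4 lists. The nearest start to the peak in the files is that of Il1b, and the summit lies at -2374 bp from it, upstream. The assay does not tell the strands apart, so the peak belongs to Il1bos only by the exon it touches.

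Gm9936, a long non-coding RNA gene on chromosome 5, had fold enrichments of 18.6, 39.7, 8.45 and 24.1. It ranked at percentile 93.6 or above in each list. The start nearest to its summits was that of another gene, 4930519G04Rik, 1762 to 1808 bp away. A730011C13Rik on chromosome 3 gave 9.39, 20.5, 10.4 and 14.8, with a lowest percentile of 89.8. The others by falling lowest percentile were Gm49654, Gm38248, 4930594C11Rik, U2, Gm33142, Itsn1, Gm19241 and Gm13966, from 87.9 down to 80.1. Itsn1, an endocytic scaffold protein, was the only one of the 12 typed as protein coding.

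U2 is an RNA of the spliceosome that removes introns. Its region on chromosome 11 (101536537 to 101536745) gave 8.50, 9.79, 11.7 and 19.6, at percentiles 85.1, 83.6, 98.7 and 97.5. U2 and U1 each exist in near-identical copies between which reads can be split or shared, so these values are uncertain. Exon regions were found at 5 genes named U1, 3 named U2 and 4 named 5S_rRNA.

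**Figure D4:**
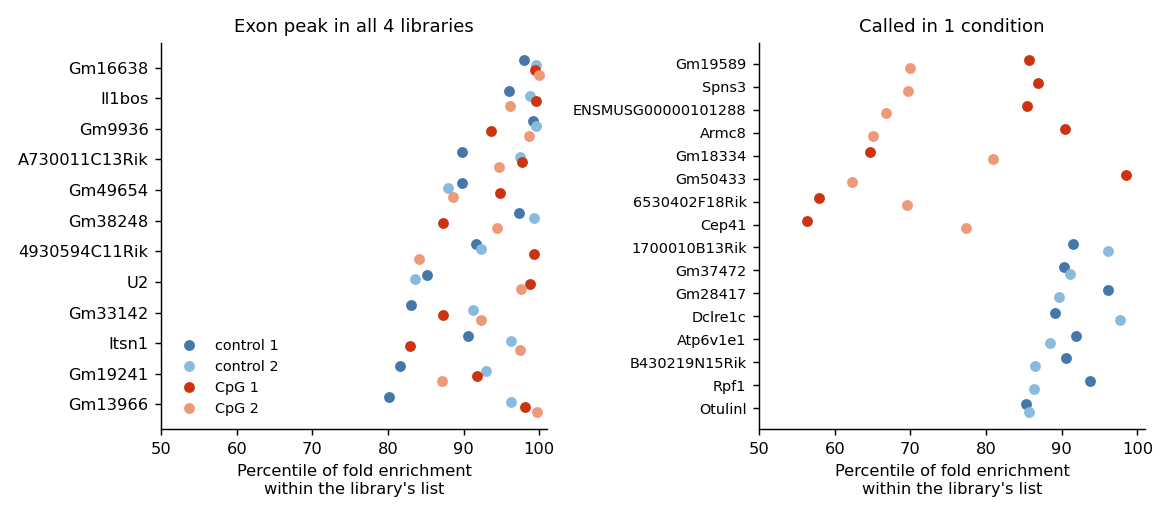
Percentile of fold enrichment within each library's own list for the 12 core regions with an exon peak in all 4 libraries (left) and for the 8 CpG-only and 8 control-only regions that ranked highest (right), 1 point per library that called the region. The core regions lie at or above percentile 80.1 in each library, while the lower point of the CpG-only regions, from Gm19589 to Cep41, is between 56.3 and 70.0.

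The median lower percentile of the 23 CpG-only regions was 38.1, against 32.5 for the 325 control-only regions. For all exon regions the median lowest percentile was 29.2, taken over differing numbers of libraries and so not directly comparable. The highest ranked CpG-only region was Gm19589 on chromosome 1. It had fold enrichments of 7.003 in CpG 1 and 7.53 in CpG 2, at percentiles 85.6 and 70.0. Spns3, a member of the spinster transporter family, gave 7.22 and 7.51, and its peaks lay 12158 and 12125 bp into the gene. Armc8, a subunit of the CTLH ubiquitin ligase complex, had an exon peak in CpG 2 alone, with 7.09 at 280 bp from its start, and a promoter-class peak in CpG 1, with 7.78 at -92 bp. Gm50433 reached 11.2 in CpG 1, at percentile 98.5, and 6.89 in CpG 2, at percentile 62.3. The remaining 4 were ENSMUSG00000101288, Gm18334, 6530402F18Rik and Cep41, which encodes a centrosomal protein and had an exon peak in CpG 2 alone. None of the 8 was on the immune or macrophage lists.

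Among the control-only regions 1700010B13Rik on chromosome 15 (73517394 to 73518241) led with 9.95 in control 1 and 17.4 in control 2, at percentiles 91.5 and 96.1. The nearest start was that of Slc45a4 in control 1, with the summit at -144 bp from it. In control 2 it was that of 1700010B13Rik, at 32 bp. Dclre1c, which encodes the DNA repair nuclease Artemis, had an exon peak in control 1, with 9.19 at 5143 bp from its start, and an intron peak in control 2, with 21.7 at 5012 bp. Atp6v1e1, a subunit of the proton pump that acidifies lysosomes, had an exon peak in control 2, with 11.3, while its peak in control 1, with 10.1, overlapped the 3′ UTR. Rpf1, a factor of ribosome assembly, had an exon peak in control 1, with 10.8 at 116 bp from its start, and a promoter-class peak in control 2, with 10.4 at -105 bp. Gm37472, Gm28417, B430219N15Rik and Otulinl completed the 8, with a lower percentile of 85.3 or above, and the Otulinl peak of control 2 was an intron peak. These 8 ranked higher in their lists than the 8 CpG-only leaders, but they were the first of 325 regions and not of 23, and over all regions the medians above have the opposite order.

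Genes of the immune, macrophage and cell type lists had 77 exon regions at 60 genes. Of these regions 15 (19.5%) were called in all 4 libraries, against 12.1% of all exon regions, and 14 (18.2%) were control-only, against 11.7%. None was CpG-only, where the share of all exon regions was 0.831%. A further 15 (19.5%) were missing only from CpG 1, against 17.4%, and 21 (27.3%) were called in a single library, against 46.3%. Of the 15 called in all 4, none held an exon peak in all 4 libraries, 1 held one in 3, 3 in 2 and 11 in 1 alone. Beside an exon peak in any library at 11.4% of all genes named in the files, the lists ranged widely: 8 of 19 macrophage identity genes (42.1%), 3 of 8 interferon regulatory factors (37.5%), 10 of 35 interferon-stimulated genes (28.6%), 8 of 28 immediate early genes (28.6%), 7 of 26 genes of lysosome and phagocytosis (26.9%), 8 of 33 cytokines and chemokines (24.2%), 5 of 21 NF-kB genes (23.8%), 4 of 20 of antigen presentation and 6 of 33 of Toll-like receptor signalling (18.2%). Each was above the background, in lists chosen with results of these data known.

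Of 27 named markers of other cell types 3 (11.1%) had an exon peak, which is near the background. No member of the B cell list (3 named in the files), the T and NK cell list (5), the neutrophil list (7) or the stromal and endothelial list (3) had one. Among dendritic cell markers 2 of 7 had one, Itgax and Irf8, which macrophages also use, and of the erythroid markers 1 of 2, Klf1. Lower than the background were ribosomal protein genes (2 of 77), named pseudogenes (14 of 295, 4.75%), Gm and Rik genes (740 of 8203, 9.02%) and olfactory and vomeronasal receptors (7 of 89, 7.87%). Zfp zinc finger genes were near it with 25 of 229 (10.9%), and histone genes above it with 11 of 76 (14.5%). Protocadherins had 0 of 7.

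Among cytokines, Tnf, a main inflammatory cytokine, had a region in all 4 libraries with fold enrichments of 11.8, 4.81, 4.40 and 14.4. The first 2 were promoter-class peaks with summits at -135 and -194 bp, and the last 2 were exon peaks at 1845 and 1815 bp. Both CpG libraries also had a promoter-class peak of Tnf, with 2.50 at -133 bp and 8.96 at -255 bp. In each CpG library this Tnf exon peak ranked above it, at percentile 29.96 against 1.14 in CpG 1 and 94.3 against 80.4 in CpG 2. A second Tnf exon peak in CpG 2, with 3.40 at 347 bp, ranked at percentile 2.97, and an intron peak in CpG 1, with 4.502 at 1310 bp, at 32.1. In control 1 the promoter-class peak ranked above the peak in the last exon, which overlapped the 3′ UTR, at 95.4 against 52.1, and control 2 had the promoter-class peak alone. The order of the highest Tnf peaks was not tested between the conditions.

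Ccl4, a chemokine that attracts immune cells, had exon peaks in CpG 1 and CpG 2 at 973 and 86 bp from its start. Its fold enrichment in CpG 2, 27.6, was at percentile 99.1 of that list, and in CpG 1, 4.20, at percentile 22.0. CpG 1 also had a promoter-class peak of Ccl4, with 11.9 at -132 bp. The highest peak of the region was intergenic in control 1, control 2 and CpG 1, at 2774, 3261 and 3432 bp past the start of Ccl4, with 15.5, 11.98 and 12.98.

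Il23a, the subunit specific to interleukin 23, had exon peaks in control 1, control 2 and CpG 2 with 7.98, 7.66 and 17.4, each 168 to 205 bp from the start. It was not called in CpG 1. Il6, a cytokine gene that IRF5 is known to drive, had an exon peak in CpG 1 alone, with 7.78 at 269 bp from its start. The other libraries placed the Il6 peak in the 5′ UTR (control 1, 6.31) or the intron (CpG 2, 4.87), or did not call it (control 2). Lif, a cytokine of the interleukin 6 family, was control-only with 5.86 in control 1 and 5.40 in control 2, the latter an intron peak.

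Genes of Toll-like receptor signalling also had exon peaks in single libraries. Cd14, the co-receptor that hands lipopolysaccharide on, had an exon peak in control 1 alone, with 3.65 at 893 bp, percentile 5.28. In each library a higher Cd14 peak, with 13.7, 27.1, 4.002 and 21.3, overlapped the 5′ UTR and was left out by the rule. Ly96, whose product MD-2 binds lipopolysaccharide, gave 14.1, 34.6, 6.75 and 24.6, promoter class in the first 3 and an exon peak in CpG 2. Unc93b1, which brings TLR9 to endosomes, gave 6.95, 4.48, 6.50 and 8.77. Its summits lay at -18, -6 and -11 bp in control 1, control 2 and CpG 2, in the promoter class, and at 25 bp in CpG 1, an exon peak. Summits of Unc93b1 in 2 classes were thus less than 50 bp apart.

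In the NF-kB list, Nfkbia, the inhibitor that holds NF-kB in the cytoplasm, had exon peaks in control 1, control 2 and CpG 2 with 6.35, 6.59 and 4.32, each 1375 to 1476 bp into the gene. Tnip1, a ubiquitin-binding inhibitor of NF-kB, gave 6.12, 6.51, 5.56 and 12.1 and was an exon peak in control 1 alone, an intron peak elsewhere. Among the interferon regulatory factors, Irf5 itself, the target of the antibody, had a control-only region on chromosome 6 (29535143 to 29535658). It was an exon peak in control 1 (5.53, percentile 45.5) and an intron peak in control 2 (6.45, percentile 55.9), 8662 and 8960 bp into the gene.

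Of the genes printed above, Rsad2 and B2m had summits at both sides of the start, and Irgm1 downstream alone. Rsad2 was an exon peak in control 1 alone, 59 bp downstream with 4.01, while the other 3 libraries had summits at -32, -56 and -144 bp in the promoter class with 9.93, 6.31 and 13.8. B2m was an exon peak in control 1 alone, 69 bp downstream with 8.19, and promoter class in the others, at -86, -126 and -26 bp with 13.4, 4.84 and 7.73. Control 1 also had a promoter-class peak of B2m, with 6.50 at -244 bp. Irgm1 had exon peaks in control 1 (5.11, 94 bp) and CpG 2 (9.75, 99 bp) and no call in the other libraries. Ifi35, an interferon-induced protein, was an exon peak in CpG 1 alone, 200 bp downstream. Parp14, an interferon-induced ADP-ribosyltransferase, had an exon peak in control 2, CpG 1 and CpG 2 with 8.91, 6.25 and 9.42, far from any start.

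**Figure D5:**
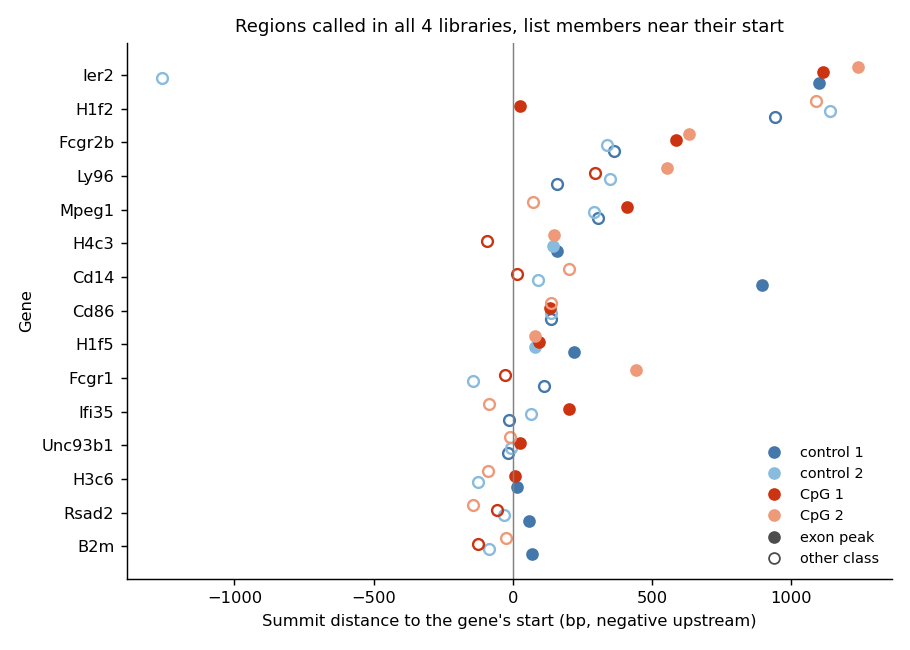
Distance of the summit from the gene's start (bp, negative upstream) for list members called in all 4 libraries whose summits all lie within 1.5 kb of their own start, 1 point per library. Filled points are exon peaks and open points are peaks of another class. Drawn is the library's highest exon peak, or its highest peak of any class where it has none, so further peaks are not shown. Rsad2, B2m and Unc93b1 have their single filled point downstream of the start and their open points upstream. That order follows largely from the classes, since the promoter class takes peaks with a summit just upstream.

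Of the immediate early genes, whose transcription starts within minutes of a stimulus, Ier2 had exon peaks in control 1, CpG 1 and CpG 2 with 12.7, 4.20 and 8.66, at 1100 to 1238 bp. Control 1 and CpG 2 also had a promoter-class peak of Ier2 at -1261 bp, the only kind called in control 2. Klf4, a zinc finger factor of macrophage polarisation, was control-only with exon peaks of 9.75 and 9.25, at percentiles 91.0 and 81.4 and 2094 and 1983 bp from its start. Klf2, its relative that restrains inflammation, was control-only with 5.87 and 5.16, an exon peak in control 1 alone. A region of Ier5 was control-only with 4.77 and 9.02, while another nearer its start was also called in CpG 2.

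Of the 19 macrophage identity genes, 5 and 6 had an exon peak in the control libraries, and 1 and 3 in the CpG libraries. That is 26.3%, 31.6%, 5.26% and 15.8% of the list, beside 5.14%, 6.44%, 1.75% and 4.32% of all named genes in the same libraries. Csf1r, the receptor for the growth factor on which these cells depend, had exon peaks in 4 regions, none of which was called in CpG 2 and 2 of which were control-only. Control 1 and control 2 gave 5.82 and 7.498 in one of these and 4.56 and 7.21 in the other, each an intron peak in control 2. Mpeg1, which encodes the pore-forming perforin-2, had a region in all 4 libraries with 17.6, 14.9, 7.06 and 11.2, an exon peak in CpG 1 alone, and a second control-only region with exon peaks of 7.24 and 5.54. Sirpa, the receptor for the signal of self CD47, had 2 control-only regions. Lyz2, which encodes lysozyme, had exon peaks in both control libraries with 18.1 and 6.95, at percentiles 99.1 and 62.5, and an intron peak in CpG 2.

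The Fc receptor genes Fcgr1, Fcgr2b and Fcgr3, whose products bind antibody, had a region in all 4 libraries. Fcgr1 had an exon peak in CpG 2, Fcgr2b in CpG 1 and CpG 2, and Fcgr3 in control 2. The co-stimulatory gene Cd86 was an exon peak in CpG 1, with 4.002 at 132 bp from its start, and an intron peak 137 bp from it in the other libraries, with 8.17, 12.9 and 6.59. Control-only regions were also found at Itgax (7.04 and 10.3), Ctsb, a lysosomal protease (8.92 and 6.28), Stab1, a scavenger receptor (5.38 and 5.59), and H2-M3, a non-classical MHC gene (4.91 and 9.34). For H2-M3 and Stab1 both control peaks were exon peaks, and for Itgax and Ctsb the peak of control 1 was an intron peak.

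Histone genes have short single exons, and some of their copies are near identical, so their values are uncertain. H1f5 was the only member with an exon peak in all 4 libraries, with 7.46, 10.1, 3.602 and 10.5 at 79 to 219 bp from its start. H4c3 had exon peaks in control 1, control 2 and CpG 2 with 23.5, 19.9 and 11.01, and a promoter-class peak in CpG 1. H3c6 reached 26.1 in control 1, percentile 99.8 of its list and the highest exon peak there, 16 bp past the start, and was promoter class in control 2 with 40.5.

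The genes with most exon regions were Gm38082 with 5, and Arhgap30, Csf1r, ENSMUSG00000092274, Gm37084, Gm37472, Gm45223, Kctd12 and Pirb with 4 each. In Gm38082 all 5 regions were exon peaks in control 2, with fold enrichments of 16.6, 17.1, 5.15, 5.23 and 5.59, against 1 region in control 1, none in CpG 1 and 2 in CpG 2. ENSMUSG00000092274 held the longest exon peak of the 4 lists, 20805 bp in control 1 with a fold enrichment of 23.9, where control 2 called 8679 bp with 15.7. Pirb, an inhibitory receptor of myeloid cells, was called in all 4 libraries in only 1 of its 4 regions. Arhgap30 had its region near the start called in control 1, control 2 and CpG 2 with 7.26, 7.70 and 7.55.

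Of 13 microRNA genes with an exon region, 12 were found in RefSeq, and those whose region was called in all 4 libraries, Mir1956, Mir6539 and Mir6541, are shown where listed, with Mir223, known from myeloid cells, and Mirlet7i, a member of the let-7 family. The seed, bases 2 to 8, is in capitals.
miR-1956: aGUCCAGGgcugagucagcgga
miR-6541: cACAGGCAaggacuucucaag
miR-223-3p: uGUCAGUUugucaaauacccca
miR-223-5p: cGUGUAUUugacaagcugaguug
let-7i-5p: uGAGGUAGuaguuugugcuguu
No 2 of these share a seed. The region at Mir1956 gave fold enrichments of 8.98, 10.9, 3.95 and 18.1, that at Mir6541 8.89, 14.2, 7.003 and 13.5, and that at Mir6539 6.75, 10.4, 5.34 and 21.4, each an exon peak in 1 library. Mir223, a microRNA that restrains myeloid activation and shares its region with F630028O10Rik, gave 5.03 in control 1, 6.45 in control 2 and 8.48 in CpG 2. Mirlet7i was called in control 1 alone, with 5.03. A peak at such a gene may lie on the DNA of a host transcript or its start, and it says nothing of the level of the microRNA.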

How the data were processed

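The submitters' processing notes name MACS2 2.1.0, ChIPseeker, BWA 0.7.12 and fastp 0.20.0 without roles; the sources used here give no genome build. The deposited peak lists give each peak's pileup, a signal at its summit. They also give a fold enrichment, the ratio to local background computed by the authors' peak caller, and the −log10 of its p-value and q-value, deposited under damaged headers and read from their order. Fold enrichments of several libraries are often given side by side, each describing its own list. They are not comparable in size between libraries, and ranks are given as percentiles within a list. Lines continuing an overlong annotation were skipped (875, 1017, 281 and 682), as were 15, 17, 13 and 16 peaks on other contigs. An exon peak has the exon class and no promoter or UTR class.

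Regions were merged at 1 bp of overlap. A library is represented in a region by its highest exon peak, or its highest peak of any class where it has none. Named are the 12 core, 8 CpG-only and 8 control-only regions with the highest lowest percentile, genes with most regions (9 by a tie), and members of the immune and macrophage lists called in all 4 libraries or 1 condition; further list members, histones and small RNAs were named after their values were seen. Members and lists were chosen with earlier results of these data known. Gene types and sequences are from RefSeq (GRCm38.p6), matched by symbol. Exact permutation tests were run in Python 3.11.15 with numpy 2.4.6 and pandas 2.3.3; the counting step was checked on simulated peaks of known overlap.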

Additional observations from a re-analysis of the deposited data

How the results depend on the processing

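Of 67 alternative values, 47 kept their direction and side of the threshold or stayed within 1.5 times the count. With 2 libraries per condition no p could fall below 0.333, so keeping the side of the threshold adds no support. With equal numbers of peaks the difference in near-start share reversed to -4.15 points, CpG-only exon regions were 46, control-only 93 and those in all 4 libraries 189. A −log10 q of at least 5 gave 222 in all 4. Counting only regions where every peak is an exon peak gave 12 CpG-only, 140 control-only (7.92%) and 74 in all 4 (4.19%). The latter shares were below the 8.7% and 10.1% of all regions, but this setting lowers counts of regions in several libraries by construction. Chosen after seeing the data, exon summits at 1 kb or more from a start gave 12, 161 and 143 (9.73%, below 10.1%), and the authors' lists of whole conditions 82 and 724. Leaving out 1 library in turn gave 30 to 231 CpG-only, 353 to 843 control-only and 294 to 787 in all libraries left, with number ratios of 0.292 to 0.717. The cause of these moves was not tested, beyond fewer peaks or libraries entering. Paired by replicate number as a block, the number ratio was 0.461 (exact sign-flip p = 0.5, its smallest), and the differences were -0.721, 3.83 and 1.90 (p = 0.5, 0.5 and 1.0). Only 2 pairs exist, with a correlation of their deviations of 0.106, so the numbers are not taken to pair the libraries.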

Other observations

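Exon regions were spread over all assembled chromosomes, at 254 of 4527 regions (5.61%) on chromosome 11 and 243 of 3599 (6.75%) on chromosome 7, the highest share, down to 1 of 39 on chromosome Y. In the authors' lists of whole conditions, 1113 of 28465 control peaks (3.91%) and 502 of 15249 CpG peaks (3.29%) were exon peaks. Among gene groups outside the immune lists, Serpina3d-ps, a pseudogene, had an exon peak in control 2, CpG 1 and CpG 2 with fold enrichments of 9.77, 5.25 and 9.64, and Klk2-ps had a region in all 4 libraries with 5.89, 8.15, 3.27 and 4.48.

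The lists allow no statement on read depth, 2 libraries per condition cannot reach a p below 0.333, and by the names of the lists the IgG background follows the condition. Exon classes depend on an annotation whose build is not known here. Reads can be split or shared between near-identical copies of U1, U2 and some histone genes, so values there are uncertain.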
